A study of Mus musculus with 6 samples.

Results

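Corticosteroid signalling in the colon was described through 9 genes, taken by their symbols out of the 20170 genes in the deposited count table, and all 9 were found. They are Nr3c1 and Nr3c2, which encode the glucocorticoid and mineralocorticoid receptors, Hsd11b1 and Hsd11b2, the enzymes that activate and inactivate glucocorticoids, Cyp11a1 and Cyp11b1, the first and a last enzyme of glucocorticoid synthesis, Nr5a2, a nuclear receptor also called LRH-1, and Crhr1 and Crhr2, the receptors of corticotropin-releasing hormone (CRH) and the urocortins. RNA came from colon tissue of wild-type C57BL/6J mice, and every mouse had received azoxymethane (AOM), a colon carcinogen, at 10 mg/kg by injection into the abdomen and dextran sulfate sodium (DSS), which injures the colon lining, at 2% in the drinking water in 3 intermittent rounds. The 3 control samples had AOM and DSS alone, and the 3 stressed samples came from mice that also spent 3 to 4 hours of each day confined in a 50 mL centrifuge tube with air holes, called chronic restraint stress. Neither group shows untreated colon. Age, sex, the place along the colon and the hour of sampling are not in the labels. The labels also do not say whether each sample is a separate mouse. A p-value therefore reflects the spread among the samples, which may not be the spread between mice.

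Glucocorticoids reach the gut from the adrenal gland and are also made there in small amounts, and they act by binding the glucocorticoid receptor, which then regulates genes in the nucleus. The enzyme 11-beta-HSD2 inactivates corticosterone and so leaves the mineralocorticoid receptor to aldosterone, which drives sodium uptake in the distal colon, while 11-beta-HSD1 regenerates active hormone. In mouse intestine, LRH-1 is known to act in crypt cells and to switch on the genes of local glucocorticoid synthesis.

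Total counts ran from 27160547 to 33017500 per sample, and 15890 genes passed the filter on low counts. The labels call the cells colorectal cancer cells, but every sample also held wall tissue, with summed markers of smooth muscle at 2537 to 7612 CPM (counts scaled to the library's depth) and of enteric neurons at 62.8 to 175 CPM, beside epithelial markers at 10166 to 14923 CPM. Control replicate 3 stood apart by squamous epithelium markers, with 2450 CPM against 3.94 to 63.8 CPM elsewhere. Control replicate 1 stood apart by absorptive colonocyte markers, at 6660 CPM against 1457 to 2887 CPM, and by low crypt stem cell markers, at 92.2 CPM against 229 to 820 CPM. Values without these samples are given where they matter. In bulk tissue, fewer cells of a type and less RNA per cell cannot be told apart.

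The levels of the 9 genes differed over a wide range. On the deposited FPKM scale (fragments per kilobase of gene, scaled to depth), the mean level over the 6 samples was 67.8 for Hsd11b2, 9.62 for Nr3c1, 8.70 for Nr3c2, 4.34 for Hsd11b1, 4.22 for Nr5a2 and 0.262 for Cyp11a1. Hsd11b2 lay above Nr3c1 in 6 of 6 samples with no overlap, and Nr5a2 lay above Cyp11a1 likewise. The neighbours Nr3c1 and Nr3c2, Nr3c2 and Hsd11b1, and Hsd11b1 and Nr5a2 overlapped, with the first above the second in 4, 5 and 3 of the 6 samples. Crhr2, Crhr1 and Cyp11b1 had 24, 4 and 2 counts in all 6 samples together and did not pass the filter, which left 6 of the 9 genes for the test.

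No gene of the 9 passed an adjusted p of 0.05 between stressed and control samples, and by edgeR 0 of all 15890 genes did (0%, with 2644 at an unadjusted p under 0.05). Nr3c1 was the gene of the 9 whose groups did not overlap, lower in all 3 stressed samples, and its unadjusted edgeR p was under 0.05. Nr5a2 had the largest difference in level, at 0.442 times the control level, with overlapping groups. Nr3c2, Hsd11b1, Hsd11b2 and Cyp11a1 differed by less than the spread between samples. By DESeq2, an alternative test that called 4.88% of the genes it adjusted, 0 of these 6 genes passed either. An unadjusted DESeq2 p under 0.05 was reached by 3235 of the 20170 genes in the table. Nr3c1 (0.0294) and Nr5a2 (0.0199) were among them.

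**Figure D1:**
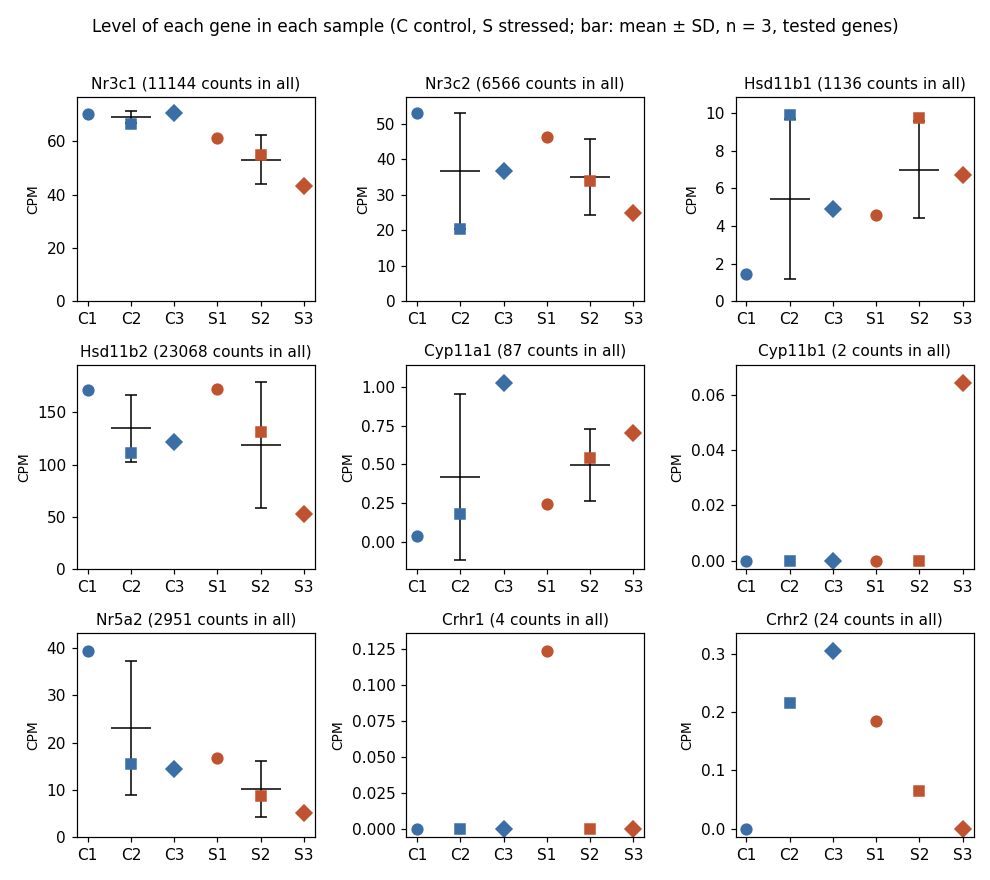
CPM (counts scaled to depth, vertical axis) of each of the 9 genes in the 3 control (C, blue) and 3 stressed (S, orange) samples, with the mean ± SD of each group for the 6 tested genes. The stressed values of Nr3c1, 43.2 to 61.3 CPM, all lie under the control values, 66.4 to 70.7 CPM, while the groups of the other tested genes overlap.

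The glucocorticoid receptor gene Nr3c1 measured 70.4, 66.4 and 70.7 CPM for control replicates 1, 2 and 3 versus 61.3, 54.9 and 43.2 CPM in stressed replicates 1, 2 and 3. The controls were close together, the stressed samples were spread more widely, and the lowest value was that of stressed replicate 3. The means were 69.2 ± 2.40 and 53.1 ± 9.17 CPM (SD, n = 3 each), and the log2 fold change, stressed minus control, was -0.38 ± 0.14 (SE), or 0.767 times the control level. By the edgeR quasi-likelihood test the unadjusted p was 0.0283 and the adjusted p 0.268. Over the 6 fits that each left out 1 sample the unadjusted edgeR p ran from 0.0119 to 0.0723. Without stressed replicate 3 the log2 fold change was -0.25, closer to 0 by over 1.5 times. Lower non-overlapping groups were found in 11.2% of all genes tested and a lower unadjusted p under 0.05 in 8.82%, so 1 of 6 tested genes on either count is near the background and is not read as a result about the 9 genes. Summed smooth muscle and enteric neuron markers were also lower in each stressed sample than in any control, at 2537 to 4147 against 5592 to 7612 CPM and at 62.8 to 79.3 against 86.5 to 175 CPM, and 8 of 8 and 7 of 8 of these markers were at a lower unadjusted p under 0.05. Epithelial markers, at 10166 to 13274 against 11697 to 14923 CPM, overlapped. The part of these cells in the level of Nr3c1 was not tested.

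The mineralocorticoid receptor gene Nr3c2 measured 53.1, 20.3 and 36.6 CPM for controls, versus 46.3, 34.0 and 25 CPM under restraint. Its highest and lowest values were both controls, replicates 1 and 2, and the stressed samples lay between them. The means were 36.6 ± 16.4 and 35.1 ± 10.7 CPM, and the log2 fold change was -0.061 ± 0.37 (edgeR adjusted p = 0.948). Without control replicate 1 the log2 fold change was 0.30, in the opposite direction, and without stressed replicate 3 it was 0.13. In the GENCODE M21 annotation 247 exon bases of Nr3c2 lie opposite the noncoding gene Gm10649, and reads of the pair cannot be told apart without the strand setting.

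Within each sample the ratio of Nr3c1 to Nr3c2 FPKM was 0.857, 2.11 and 1.25 in the controls and 0.854, 1.04 and 1.11 in the stressed samples. The receptors were thus at similar levels per length except in control replicate 2, where Nr3c2 was lowest. The mean log2 ratio was 0.39 ± 0.65 in controls and -0.0057 ± 0.20 in stressed samples, and the difference of -0.40 gave a two-sided p = 0.4 by exact permutation, for which 0.1 is the lowest p that 3 against 3 samples allow. Without control replicate 2 the difference was -0.055.

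The nuclear receptor gene Nr5a2 measured 39.3, 15.6 and 14.4 CPM for control replicates 1, 2 and 3, versus 16.8, 8.74 and 5.09 CPM for stressed replicates 1, 2 and 3. Control replicate 1 was far above the rest, and stressed replicate 1 was above the other controls, so the groups overlapped. The means were 23.1 ± 14.0 and 10.2 ± 5.96 CPM, and the log2 fold change was -1.18 ± 0.55 (edgeR unadjusted p = 0.0717, adjusted p = 0.333). Of the genes tested, 4.62% had a lower log2 fold change. Without control replicate 1 it was -0.56, and over the 6 fits with 1 sample left out it ran from -1.73 to -0.56 and kept its sign. Summed absorptive colonocyte markers were likewise highest in control replicate 1 and lowest in stressed replicate 3, at 6660 and 1457 CPM. Among these 8 markers, Car1 was instead lowest in control replicate 2, at 191 CPM, and Aqp8 in stressed replicate 2, at 95.4 CPM. Slc51a had 0 counts in control replicate 1 and 10 in all. Summed crypt stem cell markers ran the other way, at 92.2 CPM in control replicate 1 and 820 CPM in stressed replicate 3. Their part in the level of Nr5a2 was not tested.

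The RefSeq promoter table (build GRCm38.p6) holds 2 transcript starts of Nr5a2. The 250 bases before each are shown because Nr5a2 had the largest difference of the tested genes present in the table and because a short motif of the glucocorticoid receptor occurs in both. Both lie on the minus strand, at chr1:136960449-136960698 and chr1:136953631-136953880. Capitals mark the hexamer TGTTCT, which is one arm of the glucocorticoid response element, read on either strand.
Nr5a2 upstream start: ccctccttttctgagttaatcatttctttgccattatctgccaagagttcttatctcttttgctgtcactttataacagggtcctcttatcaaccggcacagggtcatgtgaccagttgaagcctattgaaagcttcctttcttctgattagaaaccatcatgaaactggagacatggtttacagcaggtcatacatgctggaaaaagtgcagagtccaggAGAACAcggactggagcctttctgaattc
Nr5a2 downstream start: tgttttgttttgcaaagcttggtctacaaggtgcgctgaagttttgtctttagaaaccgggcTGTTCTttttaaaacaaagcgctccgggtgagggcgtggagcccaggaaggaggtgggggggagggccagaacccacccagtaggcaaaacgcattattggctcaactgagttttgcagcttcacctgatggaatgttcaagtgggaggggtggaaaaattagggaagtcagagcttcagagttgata

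The hexamer occurred once before each start. Before the upstream start it lay on the opposite strand, as AGAACA, 29 to 24 bases ahead of the start, and before the downstream start on the strand of the gene, 188 to 183 bases ahead. Of all 32851 promoter windows of 250 bases in the table, 16.1% held it on either strand. Windows were found for 6 of the 9 genes, Nr3c2, Hsd11b1, Nr5a2, Cyp11a1, Crhr1 and Crhr2, 8 windows in all, and these in Nr5a2 were the 2 that held the hexamer. The full palindromic element, AGAACA and TGTTCT with 3 bases between them, was in 0 of the 8 and in 0.00913% of all windows. The sequence AAGGTCA, the element bound by LRH-1 and its relatives, was in 0 of the 8, including both windows of Cyp11a1, and in 4.08% of all windows. A match in these windows is a description of the letters and does not show binding.

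Hsd11b2, whose enzyme inactivates corticosterone in colon epithelium, measured 171, 111 and 121 CPM for controls, versus 172, 131 and 53 CPM under restraint. Stressed replicate 1 was the highest sample and stressed replicate 3 the lowest, so the stressed samples spanned the controls. The means were 134 ± 32.2 and 119 ± 60.6 CPM, and the log2 fold change was -0.18 ± 0.41 (edgeR adjusted p = 0.845). Without stressed replicate 3 it was 0.18 and without control replicate 1 it was 0.035, both in the opposite direction.

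Hsd11b1, whose enzyme regenerates active glucocorticoid, measured 1.44, 9.88 and 4.90 CPM for controls, versus 4.56, 9.70 and 6.69 CPM under restraint. The lowest value was that of control replicate 1, and the other 5 samples overlapped between groups. The means were 5.41 ± 4.25 and 6.99 ± 2.58 CPM. The log2 fold change was 0.37 ± 0.65 (edgeR adjusted p = 0.786), and without control replicate 1 it was -0.081 and without control replicate 2 it was 1.13. Summed fibroblast markers were also lowest in control replicate 1, at 891 CPM against 1241 to 1828 CPM in the other samples. Summed macrophage markers were too, at 95.9 against 140 to 322 CPM. However, Lum and Dpt were lowest in stressed replicate 3, at 15.2 and 25.5 CPM, and Adgre1 in control replicate 3, at 4.56 CPM. Both lists were detected in full, and their part in the level of Hsd11b1 was not tested.

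On the FPKM scale Hsd11b2 exceeded Hsd11b1 in every sample, by 93.1, 8.79 and 19.3 times in the controls and 29.5, 10.5 and 6.20 times in the stressed samples. The transcript ratio leaned most toward Hsd11b2 in control replicate 1, where Hsd11b1 had 39 counts, and least in stressed replicate 3. Enzyme activity was not measured in these data. The log2 ratio of Hsd11b1 to Hsd11b2 was -4.65 ± 1.73 in controls and -3.64 ± 1.14 in stressed samples, a difference of 1.01 (two-sided exact permutation p = 0.6). Leaving out 1 sample gave differences from 0.065 to 1.77, the smallest without control replicate 1.

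**Figure D2:**
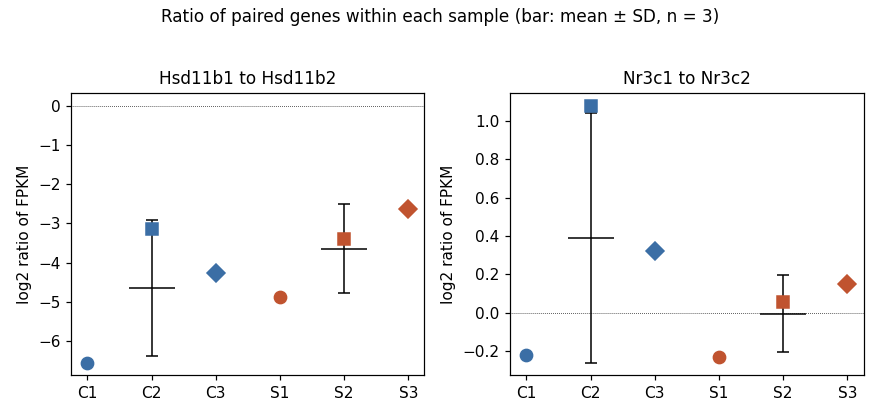
Log2 ratio of FPKM (vertical axis) of Hsd11b1 to Hsd11b2 and of Nr3c1 to Nr3c2 in each sample, with the mean ± SD of 3 samples per group. In both plots the control and stressed samples overlap, and control replicate 1 has the lowest Hsd11b1 to Hsd11b2 ratio, at -6.54.

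Cyp11a1, whose enzyme cleaves the side chain of cholesterol as the first step of steroid synthesis, had 1, 5 and 34 counts in control replicates 1, 2 and 3 and 8, 17 and 22 counts in stressed replicates 1, 2 and 3. That is 0.0369, 0.180 and 1.03 CPM against 0.245, 0.542 and 0.705 CPM, and control replicate 3, the sample with squamous markers, was highest. The log2 fold change was 0.22 ± 1.0 (edgeR adjusted p = 0.926). Leaving out 1 sample gave -0.31 to 2.14, the highest without control replicate 3 (edgeR unadjusted p = 0.0605). Mast cells are among the immune cells known to express Cyp11a1 in mice, and a list of 10 mast cell markers, added after the values of Cyp11a1 were seen, summed to 14.4, 86.4 and 140 CPM for controls and 52.9, 82.4 and 128 CPM under restraint. The sum was likewise lowest in control replicate 1 and highest in control replicate 3, where Mcpt1 and Mcpt2 were at 67.8 and 41.1 CPM. Cpa3, Mcpt4, Tpsb2, Tpsab1, Ms4a2 and Gata2 were instead highest in stressed replicate 3, and Fcer1a in control replicate 2. The part of mast cells in Cyp11a1 was not tested. In the GENCODE M21 annotation 145 exon bases of Cyp11a1 also belong to the noncoding gene Gm17322 on the same strand. The count of Cyp11a1 is therefore uncertain.

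Cyp11b1, whose enzyme makes corticosterone in its last step, had 2 counts in stressed replicate 3 and 0 in the other 5 samples. A count of 0 allows up to 3 counts, or 0.0912 to 0.111 CPM at these depths, which covers counting error only. Crhr1, the main receptor of CRH, had 4 counts in stressed replicate 1 and 0 in the other samples. Crhr2, the receptor that prefers urocortins, had 0, 6 and 10 counts in the controls and 6, 2 and 0 in the stressed samples. No difference was detectable at this depth for these 3 genes, and their unadjusted edgeR p in the fit with no filter on low counts was 0.292, 0.203 and 0.492. In the GENCODE M21 annotation 285 exon bases of Cyp11b1 lie opposite Gml2.

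**Figure D3:**
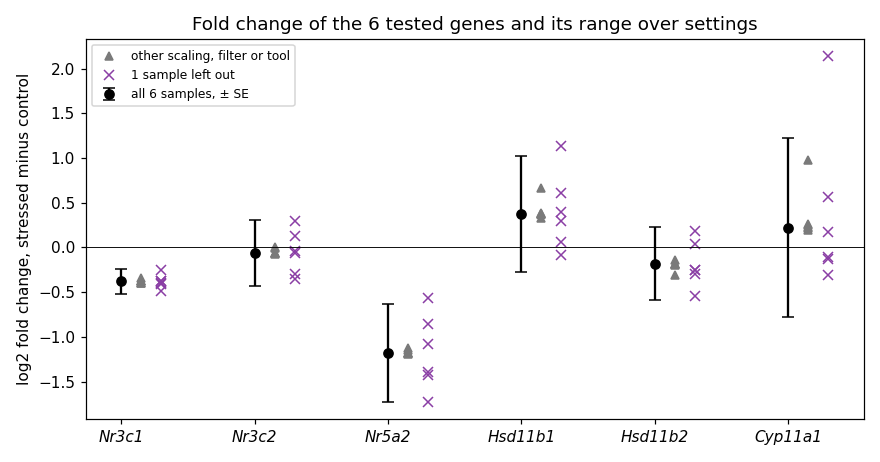
Log2 fold change, stressed minus control (vertical axis), of the 6 tested genes, with the SE of the fit to all 6 samples (black), under other scalings, filters and tools (grey triangles) and with 1 sample left out (crosses). Nr3c1 and Nr5a2 stay under 0 in all of these, from -0.49 to -0.25 and from -1.73 to -0.56, and the crosses of the other 4 genes lie on both sides of 0.

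Over the 6 samples, Nr5a2 varied together with Nr3c1 and Hsd11b2 (Pearson r of log2 CPM 0.86 and 0.81) and against Hsd11b1 and Cyp11a1 (r -0.75 and -0.78). Hsd11b1 and Nr3c2 also varied in opposite directions (r -0.79), while Hsd11b1 and Hsd11b2 had r -0.46. These are descriptions over 6 samples of 2 groups that share libraries and depth. The nearest genes were sought among 13177 others with a mean of at least 1 CPM. Genes with predicted or clone names, antigen receptor segments and sex-linked genes were left out. The genes most like Nr3c1 were Myt1, Plcd3 and Pycard (r 0.9971, 0.9935 and 0.9915), and those most like Nr3c2 were Mbd1, Lpar5 and Stk35 (r 0.9958, 0.9939 and 0.9921). Those most like Nr5a2 were Ginm1, Lrrc75a and Cyc1 (r 0.9971, 0.9971 and 0.9966). Hsd11b2 was followed most closely by Slc6a7, B3gnt3 and Klk1 (r 0.9937, 0.9912 and 0.9894), and Hsd11b1 by Pthlh, Pde3b and Ptges (r 0.9927, 0.9842 and 0.9840). These r values were picked as the highest of 13177 over 6 samples and were not tested. They also say nothing of size. From lowest to highest sample, Ginm1 varied 1.55 times and Nr5a2 7.71 times.

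**Figure D4:**
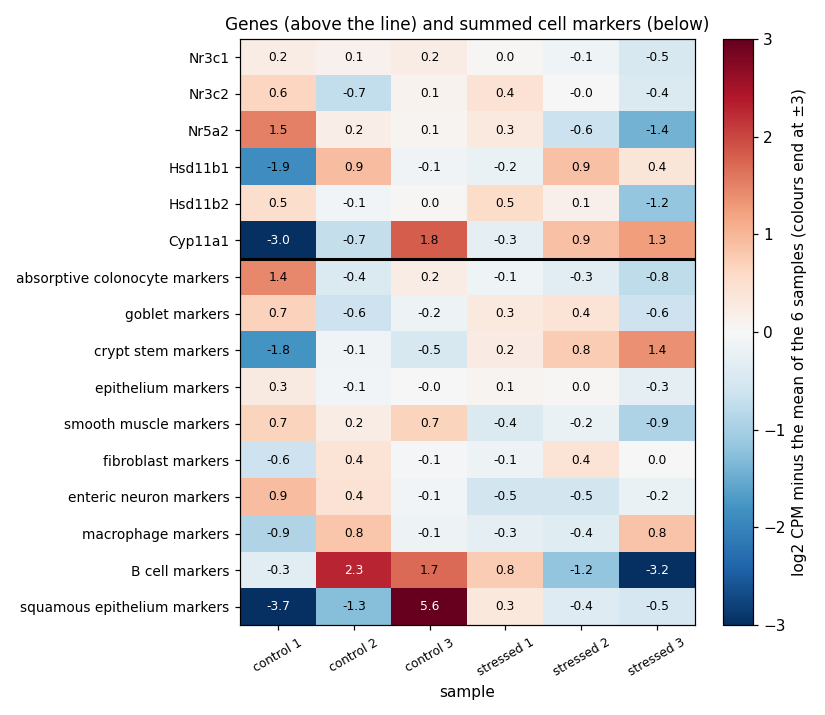
Log2 CPM minus the mean of the 6 samples (colour and printed value, colours end at ±3) for the 6 tested genes, above the line, and for summed markers of 10 cell types, below it, in each sample. Control replicate 1 is highest for Nr5a2 and the colonocyte markers and lowest for Hsd11b1 and the fibroblast markers, and stressed replicate 3 is lowest for Nr5a2, Nr3c1, Hsd11b2 and the smooth muscle markers.

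The pathway around the 9 genes was read from 7 lists, and none of their genes passed the adjusted edgeR threshold. The median log2 fold change of all genes tested was -0.015. An unadjusted p under 0.05 was reached by 8.82% of all genes as lower and by 7.82% as higher in stressed samples, and 12.5% of all genes had higher groups with no overlap.

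Steroid receptors are held ready for hormone by heat shock proteins and work through coactivators and corepressors. In this list of 12 tested genes, 0 were higher and 1 was lower at an unadjusted p under 0.05, 4 were higher and 8 lower in sign, and the median was -0.068. The gene of smallest p was Dnajb1, a cochaperone, at 153, 96.9 and 88.7 CPM in controls and 67.8, 70.9 and 62.0 CPM in stressed samples, with all stressed values under the controls. Its log2 fold change was -0.76 ± 0.21 (edgeR adjusted p = 0.225, DESeq2 adjusted p = 0.0429), and -0.47 without control replicate 1. Ncoa1, a coactivator, was at 52.9, 46.0 and 50.0 against 45.4, 39.3 and 30.4 CPM, again without overlap (edgeR adjusted p = 0.303), and its log2 fold change went from -0.37 to -0.23 without stressed replicate 3.

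Of the 15 listed genes of steroid synthesis and its control, 12 were in the table used here and 8 were tested, with 1 higher and 0 lower at an unadjusted p under 0.05 and a median of 0.04. Cyp21a1, the 21-hydroxylase on the way to corticosterone, had 0, 56 and 10 counts in the controls and 118, 337 and 140 counts in the stressed samples. The lowest stressed sample, at 3.61 CPM, lay above the highest control, at 2.02 CPM. The log2 fold change was 3.02 ± 1.21 (edgeR unadjusted p = 0.0428, adjusted p = 0.294; DESeq2 adjusted p = 0.287), and leaving out 1 sample gave 2.39 to 5.26 with unadjusted p from 0.00394 to 0.128. Mouse Cyp21a1 has a near-identical pseudogene, so its count is uncertain. Leaving out control replicate 2 gave the 5.26, and without control replicate 3 or any 1 stressed sample no gene of the list was at a higher unadjusted p under 0.05. The 4 genes of the list that were not tested, Hsd3b1, Hsd3b6, Cyp17a1 and Nr5a1, had 20, 4, 3 and 4 counts over all 6 samples. Hsd3b2, of the 3-beta-hydroxysteroid dehydrogenase family, was tested and measured 27, 6.78 and 3.8 against 9.46, 3.89 and 2.98 CPM, with overlap (edgeR adjusted p = 0.452). Star, which brings cholesterol into mitochondria, was at 6.31 ± 0.621 and 6.48 ± 1.15 CPM. Of the 5 adrenal cortex markers in the table, Star and Cyp21a1 had 1170 and 661 counts in all, while Mc2r, Mrap and Nr5a1 had 2, 2 and 4. Fdx1 carries electrons to Cyp11a1 and Cyp11b1, and its levels, 29.9 ± 6.15 and 25.1 ± 0.608 CPM, did not overlap between groups (edgeR adjusted p = 0.440). Control replicate 1 was highest, and without it the log2 fold change of Fdx1 went from -0.25 to -0.069. Fdxr, the reductase before it, overlapped, at 21.7, 14.0 and 13.8 against 12.7, 10.7 and 14.6 CPM (edgeR adjusted p = 0.419), and went from -0.38 to -0.14 on the log2 scale without control replicate 1.

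In the list of glucocorticoid inactivation and cofactor supply, 9 of 10 genes were tested, 1 was higher and 0 were lower at an unadjusted p under 0.05, and the median was 0.063. H6pd makes the NADPH that 11-beta-HSD1 uses in the endoplasmic reticulum. It was at 27.6, 40.1 and 27.2 CPM in controls and 40.3, 64.1 and 58.7 CPM in stressed samples, and the lowest stressed sample just exceeded the highest control. The log2 fold change was 0.78 ± 0.23 (edgeR unadjusted p = 0.0109, adjusted p = 0.235; DESeq2 adjusted p = 0.0472), from 0.65 to 0.99 with 1 sample left out. Pgd, an enzyme of the pentose phosphate pathway in the cytosol, was at 346 ± 10.8 and 384 ± 23.1 CPM without overlap (edgeR adjusted p = 0.456), and Srd5a1, a steroid 5-alpha-reductase, was at 26.6 ± 14.7 and 41.5 ± 11.8 CPM with overlap. The log2 fold change of Srd5a1 was 0.64 (edgeR adjusted p = 0.434), and it was 0.35 without control replicate 1, 0.40 without stressed replicate 2 and 1.17 without control replicate 3 (edgeR unadjusted p = 0.00984, adjusted p = 0.247). Without control replicate 3, 3 genes of this list were higher at an unadjusted p under 0.05.

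Of the 8 genes of the CRH family and its downstream hormones 1 was tested. Pomc, the precursor of corticotropin, had 18, 14 and 6 counts in controls and 4, 20 and 36 counts in stressed samples (edgeR adjusted p = 0.770). Its log2 fold change was 0.51 and ran from -0.23, without stressed replicate 3, to 1.0, without stressed replicate 1. Of the hormone genes, Crh and Ucn had 2 counts each in all 6 samples and Ucn3 had 13. Ucn2, which encodes a ligand of the receptor from Crhr2, had 6, 8 and 22 counts in controls and 4, 10 and 0 in stressed samples, with overlap. The other untested genes, Crhbp, Mc2r and Mc5r, had 20, 2 and 7 counts. Those of Crhbp were 0, 2 and 0 in controls and 4, 6 and 8 in stressed samples, without overlap but at very low counts. Its unadjusted edgeR p in the fit with no filter on low counts was 0.0685.

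The mineralocorticoid-induced sodium uptake list had 10 tested genes, 1 higher and 2 lower at an unadjusted p under 0.05 and a median of -0.18. Scnn1b, the beta subunit of the epithelial sodium channel, was at 5.68, 5.05 and 7.97 CPM in controls and 12.6, 17.0 and 14.2 CPM in stressed samples, and every stressed value was above every control. The log2 fold change was 1.23 ± 0.24 (edgeR unadjusted p = 0.0015, adjusted p = 0.191; DESeq2 adjusted p = 5.4e-04), from 1.10 to 1.44 with 1 sample left out. Usp2, a deubiquitinase that aldosterone induces in kidney, was at 29.1, 14.3 and 13.4 against 9.71, 9.38 and 5.96 CPM without overlap, with a log2 fold change of -1.18 ± 0.36 (edgeR unadjusted p = 0.0137, adjusted p = 0.240, DESeq2 adjusted p = 0.0353), and at -0.73 without control replicate 1. Nedd4l, a ubiquitin ligase that removes the channel, was at 95.9 ± 18.3 and 73.9 ± 8.18 CPM with overlapping groups (edgeR unadjusted p = 0.0484, adjusted p = 0.298). Its log2 fold change went from -0.38 to -0.21 without control replicate 1 (edgeR unadjusted p = 0.142). Sgk1, the kinase that aldosterone induces, named after its values were seen, was at 223 CPM in control replicate 1 and between 44.8 and 78.8 CPM in the other 5 samples. The alpha subunit gene Scnn1a, also named after its values were seen, measured 174, 76.6 and 110 against 93.8, 77.6 and 70.8 CPM, with overlapping groups and a log2 fold change of -0.58 ± 0.29 (edgeR unadjusted p = 0.0885, adjusted p = 0.351). The gamma subunit gene Scnn1g, likewise named after its values were seen, was at 3.49 ± 2.25 and 4.38 ± 2.42 CPM with overlapping groups. The count of 2 lower genes in this list at an unadjusted p under 0.05 became 4 without control replicate 2, and 1 without control replicate 1, control replicate 3, stressed replicate 2 or stressed replicate 3.

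The list of genes that LRH-1 is known to regulate in gut and liver had 7 tested members, with a median of 0.44. At an unadjusted edgeR p under 0.05, 4 were higher (7.82% of all genes) and 0 lower (8.82% of all genes). Higher groups with no overlap were found for 4 of the 7 and for 12.5% of all genes. Nr5a2 itself had a log2 fold change of -1.18, and its part in the levels of these genes was not tested. Ccnd1, cyclin D1, was at 101, 122 and 108 CPM in controls and 166, 180 and 176 CPM in stressed samples, far outside the control range. Its log2 fold change was 0.66 ± 0.11 (edgeR unadjusted p = 4.5e-04, adjusted p = 0.191; DESeq2 adjusted p = 1.5e-04). Ccne1, cyclin E1, was at 11.5 ± 0.919 and 15.7 ± 1.87 CPM without overlap (edgeR adjusted p = 0.277). Slc10a2, the ileal bile acid transporter, was at 0.479, 0.938 and 1.61 against 2.11, 2.62 and 3.01 CPM, also without overlap (edgeR adjusted p = 0.267). Ccnd1 is also a target of Wnt signalling, and summed crypt stem cell markers were at 92.2 to 299 CPM in controls and 378 to 820 CPM in stressed samples. Axin2 made up 395 of the 820 CPM. Of the 5 tested markers 2 were at a higher unadjusted edgeR p under 0.05 (7.82% of all genes), and Smoc2 and Tnfrsf19 overlapped. Olfm4, with 62 counts in all, was not tested and was highest in control replicate 3. The part of these markers in the list of LRH-1 targets was not tested. With 1 sample left out, 1 to 3 members of the list were at a higher unadjusted p under 0.05, with 1 without stressed replicate 3 and 2 without control replicate 1 or stressed replicate 2. In GENCODE M21, 1100 exon bases of Ccnd1 lie opposite LTO1, so its count is uncertain without the strand setting.

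Of the other steroid receptor genes 5 of 6 were tested, 1 was higher and 0 lower at an unadjusted p under 0.05, and the median was -0.32. Esr1, estrogen receptor alpha, was at 3.94, 7.76 and 8.33 CPM in controls and 12.9, 12.5 and 15.9 CPM in stressed samples, with no overlap. Its log2 fold change was 1.04 ± 0.31 (edgeR unadjusted p = 0.0116, adjusted p = 0.235; DESeq2 adjusted p = 0.0292). Esrra, an orphan receptor of energy metabolism, was at 169 ± 16.2 and 137 ± 18.5 CPM without overlap (edgeR adjusted p = 0.306).

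**Figure D5:**
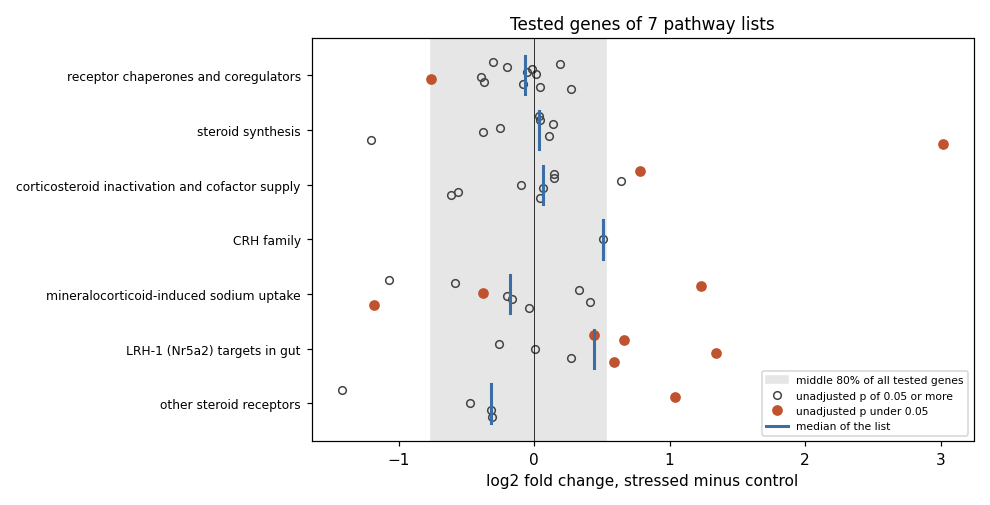
Log2 fold change, stressed minus control (horizontal axis), of each tested gene in the 7 pathway lists (circles, filled where the unadjusted p was under 0.05) with each list's median (blue bar) and the middle 80% of all tested genes (grey band, -0.76 to 0.53). The LRH-1 target list has its median at 0.44 and 4 of 7 filled circles, all higher, against 7.82% of all tested genes. Cyp21a1 lies farthest to the right, at 3.02.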

How the data were processed

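Colon RNA of 3 control and 3 stressed samples was sequenced. Read counts per gene were deposited by the authors in a single table, and FPKM values stand beside them per the file headers. Per the submitters' processing notes the build was GRCm39 and the tools included featureCounts 1.6.2, HISAT2 2.1.0, StringTie 1.3.4d and fastp 0.19.3, beside edgeR 3.24.3 and DESeq2 1.22.1, with no roles named. Annotation, gene lengths and strand setting: not given in the sources used here. Tests used the deposited counts and levels between genes the FPKM values.

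Genes were filtered with filterByExpr, scaled with TMM and tested across all genes with edgeR 4.0.16 (quasi-likelihood test, robust, group as the term, R 4.3.3), with Benjamini-Hochberg adjustment at a threshold of 0.05. CPM are TMM-scaled, and the SE is the absolute log2 fold change over the square root of F. DESeq2 1.42.0, limma-voom (limma 3.58.1), other scalings, no filter and each sample left out were tried as alternatives. The edgeR test was also tried on simulated counts, with means and dispersions taken from these data and genes drawn independently. At the same threshold it recovered 0% of changes of 1.5 times, 32.8% of 2 times and 73.8% of 4 times. It made 7 false calls, beside 22 and 48 correct ones for changes of 2 and 4 times. Shifts shared by many genes were not simulated, so these rates may not hold in the data. A gene that was not called may therefore still differ. Ratios were compared with exact permutation tests. No pair of samples was alike within sampling noise (chi-square per gene 41.3 or more).

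Samples were grouped by the treatment label, and replicate numbers follow accession order and pair nothing. The 9 genes and the lists were chosen with earlier results of these data known. Named were the 9 genes, the 3 tested genes of smallest p in each pathway list, some of which are not reported here, and the 3 genes most like each of the 5 tested members with most counts (Pearson r of log2 CPM, prior count 2). Star, Hsd3b2, Ucn2, Sgk1, Scnn1a, Scnn1g, the adrenal markers and the untested genes of the lists were named after their values were seen. Counts of genes with overlapping exons or near-identical copies are uncertain. Promoter sequences are RefSeq's (GRCm38.p6, another build than the counts), matched by symbol.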

Additional observations from a re-analysis of the deposited data

How the results depend on the processing

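The count of genes past an adjusted p of 0.05 was 0 by edgeR with each alternative scaling, without a filter and with each sample left out (2644 genes at an unadjusted p under 0.05 with all samples), 0 in limma-voom (2591 genes at an unadjusted p under 0.05), and 798 in DESeq2, a gap whose cause was not tested. For the 6 tested members the adjusted p stayed above 0.05 in all 12 alternatives. Nr3c1 and Nr5a2 kept their sign in each. Nr3c2 turned to 0.0038 in limma-voom. With 1 sample left out, log2 fold changes ran from -0.49 to -0.25 for Nr3c1, -1.73 to -0.56 for Nr5a2, -0.35 to 0.30 for Nr3c2, -0.081 to 1.13 for Hsd11b1, -0.54 to 0.18 for Hsd11b2, -0.31 to 2.14 for Cyp11a1 and -0.23 to 1.0 for Pomc. The differences in log2 ratio ran from 0.065 to 1.77 for Hsd11b1 to Hsd11b2 and from -0.71 to -0.055 for Nr3c1 to Nr3c2, and with raw counts in place of FPKM they were 1.0 and -0.40. DESeq2 called Dnajb1, H6pd, Scnn1b, Usp2, Ccnd1 and Esr1. The list counts with samples left out were added after seeing the data. No scaling moved the median of all genes by more than 0.046. No paired analysis was possible because the labels give the groups no shared replicate numbers. Depth limits Cyp11a1, Cyp11b1, Crhr1 and Crhr2, with 87, 2, 4 and 24 counts in all.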
